A study of Homo sapiens with 12 samples.

Results

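Transcripts of 10 genes of the replication checkpoint and of the enzymes it acts on were followed in A375 cells: the kinase ATR and its partner ATRIP, the mediator CLSPN (claspin), the effector kinases CHEK1 and CHEK2, the inhibitory kinases WEE1 and PKMYT1, and the phosphatases CDC25A, CDC25B and CDC25C. The members were chosen by name for their roles, by a rule that uses no measured value, though with earlier results of these data known. All 10 were found among the 26475 entries of the deposited table. All 10 passed the filter on low counts, as did 15353 entries in all.

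The replication checkpoint senses stalled or damaged replication forks. Single-stranded DNA coated by replication protein A recruits ATR through ATRIP, and ATR, with claspin as mediator, activates CHK1, the product of CHEK1. CHK2, the product of CHEK2, is activated mainly by ATM at double-strand breaks. Both effector kinases restrain the CDC25 phosphatases, which remove the inhibitory phosphates that WEE1 and PKMYT1 place on cyclin-dependent kinases. Much of this control acts on the proteins, by phosphorylation and degradation, which RNA sequencing does not read.

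A375 is an established human melanoma line. The cells were kept for 24 h with the vehicle DMSO, with XL413 at 1 µM, with OF1 at 1 µM, or with both compounds at 1 µM each, and 3 libraries labelled as biological replicates were made per treatment. XL413 inhibits CDC7, the kinase that helps to fire replication origins, and OF1 inhibits the bromodomain proteins BRPF1, BRPF2 and BRPF3. All groups are the same line at a single dose and time.

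The 12 libraries held 30499567 to 36062131 rounded counts (median 33319753.5). Of the melanocyte markers, SOX10 stood at 344 ± 18.8 CPM (SD, n = 3) and MITF at 43.4 ± 0.851 CPM in DMSO, whereas the pigment gene TYR had no count there and PMEL stood at 0.525 ± 0.0385 CPM. The combination libraries 2 and 3 stood apart on the first principal component (24.1% of the variance), at -33.4 and -31.5, against -6.99 to 15.1 for the other 10. The summed level of 14 skeletal muscle genes ran from 22.1 to 96.0 CPM in the combination, from 85.8 to 229 CPM in DMSO, from 127 to 278 CPM with XL413 and from 123 to 286 CPM with OF1, and none of the 14 genes was at 0. None of the 14 passed in edgeR or limma-voom. In edgeR, 7 had an unadjusted p under 0.05 in the combination against DMSO, 14 against XL413 and 13 against OF1. Of all 15353 genes, 3866, 2536 and 3397 did so in these comparisons. For the combination minus both single-compound log2 changes it was 13 of the 14, against 1537 of all genes. DESeq2 called 4 of the 14 lower in the combination against DMSO, 10 against XL413 and 12 against OF1. The summed level of 8 fibroblast genes ran from 58.5 to 159 CPM in the combination, from 214 to 270 CPM in DMSO, from 235 to 280 CPM with XL413 and from 256 to 285 CPM with OF1, and in the combination 3 of the 8 fell against DMSO, 3 against XL413 and 6 against OF1 in edgeR. DESeq2 and limma-voom each called 5 lower against DMSO, 5 against XL413 and 6 against OF1. The part of these transcripts in the results below was not tested beyond the fits that are named.

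Levels are given as CPM, the count relative to the library's trimmed-mean scaled total, and changes as log2 fold changes with their standard error from edgeR's quasi-likelihood test. A gene was said to rise or fall where the p-value, adjusted by Benjamini-Hochberg over all 15353 genes, was under 0.05. Each member had between 428 (CDC25C) and 7374 (CDC25B) counts in a library. RNA of a whole culture was measured, so a change in the share of cells in a cell cycle phase and a change in RNA per cell cannot be told apart.

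Per kilobase of the longest coding transcript, CDC25B had the highest level in DMSO at 53.9 ± 0.390 CPM per kb (SD, n = 3). PKMYT1 followed at 24.9 ± 0.871, CDC25A at 22.1 ± 0.416, CHEK1 at 18.5 ± 0.377 and CLSPN at 17.6 ± 0.291 CPM per kb, with no overlap between neighbours. ATR at 7.42 ± 0.301, WEE1 at 7.10 ± 0.375, CHEK2 at 6.89 ± 0.605 and CDC25C at 6.69 ± 0.724 CPM per kb overlapped with their neighbours in the order, and ATRIP was lowest at 5.95 ± 0.0486. The effector CHEK1 was thus well above the effector CHEK2 per length, and CDC25B well above the other 2 phosphatases.

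With XL413 alone, ATRIP and CHEK2 rose and no member fell. Over all genes tested, 1.41% rose and 1.75% fell in this comparison. Libraries did not overlap between XL413 and DMSO for 5 of the 10 members, 4 higher and 1 lower, against 27.8% of all genes. The median log2 change was 0.01 over the members and 2.86e-06 over all genes.

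With OF1 alone, no member passed the test, against 0.664% of all genes that rose and 0.769% that fell. An unadjusted p under 0.05 was reached by 3 members in edgeR, WEE1, PKMYT1 and CDC25B, all lower, against 2171 of all 15353 genes. After adjustment limma-voom called 0 of the 10. DESeq2 called 0 of the 8 members to which it gave an adjusted p; it gave none to CHEK2 and CDC25C. The same 3 members were those whose libraries did not overlap, against 22% of all genes. The median log2 change was 0.02 over the members and 0.00 over all genes.

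With both compounds, CHEK1, CHEK2 and CDC25C rose against DMSO and no member fell. Of all genes, 5.54% rose and 5.1% fell in this comparison. Libraries did not overlap for 5 members, 4 higher and 1 lower, against 27.6% of all genes, and the median log2 change of the members was 0.05. Against XL413 alone only CDC25C rose, where 1.06% of all genes rose and 1.99% fell, and libraries did not overlap for 5 members against 19.4% of all genes.

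Against OF1 alone, CHEK1, CHEK2, PKMYT1 and CDC25B rose in the combination, where 2.73% of all genes rose and 2.46% fell. Libraries did not overlap for 6 members, all higher in the combination, against 22.5% of all genes, and the median log2 change was 0.15. The combination libraries are shared by all 3 of these comparisons and the DMSO libraries by 3 of the 5, so their calls are not independent of each other. The combination minus both single-compound log2 changes, called the interaction below, passed for no member in edgeR, DESeq2 or limma-voom, against 0.0326% of all genes in either direction. An unadjusted p under 0.05 was reached there by 3 members, ATRIP, PKMYT1 and CDC25C, against 1537 of all 15353 genes.

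**Figure D1:**
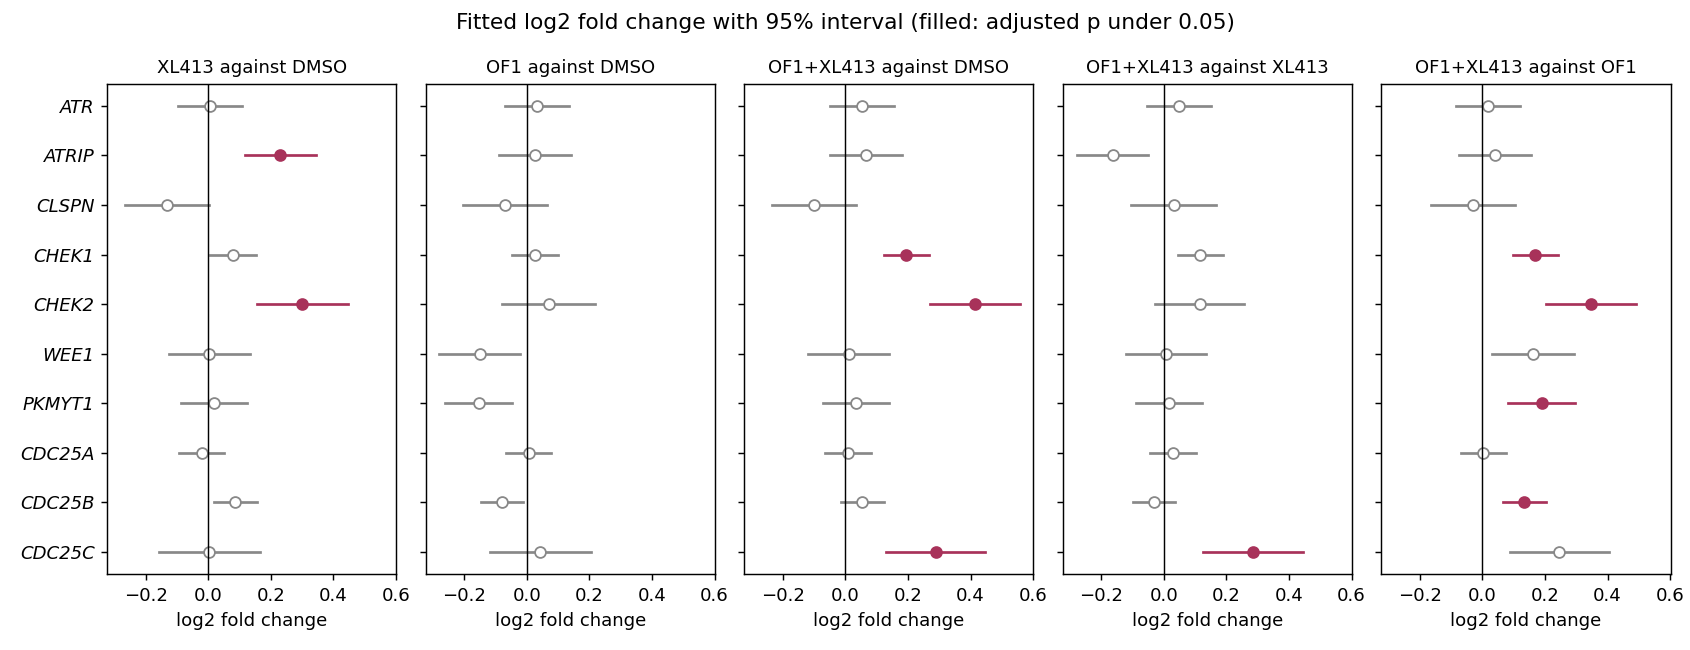
Log2 fold change of each member (points) with its 95% interval (lines) in the 5 comparisons between treatments; filled red points passed at an adjusted p under 0.05. Filled points lie to the right of 0 in each panel that has any, and the OF1 panel has none.

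ATR, the apical kinase, stood at 58.4, 63.3 and 61.9 CPM in the DMSO libraries, 61.7, 60.7 and 61.7 with XL413, 65.9, 60.6 and 61.2 with OF1, and 66.5, 64.7 and 59.1 with both. The 4 groups overlapped. The combination differed from DMSO by a log2 change of 0.05 ± 0.05, with a 95% interval of -0.05 to 0.15.

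ATRIP, which carries ATR to coated single-stranded DNA, had 27.0, 27.3 and 27.4 CPM in DMSO, 33.4, 31.8 and 30.7 with XL413, 25.9, 28.0 and 29.3 with OF1, and 28.4, 29.7 and 27.4 with both. Each XL413 library was above all 9 others. ATRIP rose by a log2 change of 0.23 ± 0.05 with XL413 against DMSO (1.17-fold, edgeR adjusted p = 0.0279). In the combination it was lower than with XL413 alone by a log2 change of -0.16 ± 0.05, which did not pass (adjusted p = 0.115), and its interaction was -0.19 ± 0.08 (adjusted p = 0.406). The call with XL413 was lost without any 1 of the 6 DMSO and XL413 libraries, at adjusted p-values of up to 0.109, and with the muscle level as a covariate (0.21, adjusted p = 0.0627). ATRIP shares its locus with TREX1, a DNA exonuclease gene, and with the read-through ATRIP-TREX1. TREX1 itself had a log2 change of -0.15 ± 0.08 with XL413 (adjusted p = 0.294), and 8 of the 12 ATRIP counts were not whole, so some reads were split between entries.

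CLSPN, whose protein bridges ATR and CHK1 at the fork, had 82.9, 83.3 and 85.4 CPM in DMSO, 78.9, 70.0 and 80.6 with XL413, 87.8, 76.8 and 75.0 with OF1, and 81.4, 80.5 and 72.7 with both. All XL413 and all combination libraries were below the DMSO libraries, while OF1 overlapped with them. The log2 changes of -0.13 ± 0.06 with XL413 (adjusted p = 0.286) and -0.10 ± 0.06 with both (adjusted p = 0.352) did not pass. Their 95% intervals were -0.27 to 0.0027 and -0.23 to 0.03.

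CHEK1, which encodes the effector kinase of the ATR branch, had 75.2, 78.2 and 77.5 CPM in DMSO, 80.3, 80.9 and 82.5 with XL413, 79.0, 77.2 and 78.8 with OF1, and 88.7, 87.8 and 87.8 with both. The 3 combination libraries were above all 9 others, and the XL413 libraries were above those of DMSO and OF1. CHEK1 rose in the combination by 0.20 ± 0.03 on the log2 scale against DMSO (1.14-fold, edgeR adjusted p = 0.00141) and by 0.17 ± 0.03 against OF1 (adjusted p = 0.0103). Against XL413 alone the log2 change of 0.12 ± 0.03 did not pass (adjusted p = 0.0758), nor did that of XL413 against DMSO, 0.08 ± 0.03 (adjusted p = 0.235). With OF1 alone it was 0.03 ± 0.03, with a 95% interval of -0.05 to 0.10.

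CHEK2, which encodes the effector kinase of the ATM branch, had the smallest adjusted p of any member. Its libraries stood at 15.0, 12.9 and 12.9 CPM in DMSO, 16.9, 16.2 and 17.0 with XL413, 13.4, 14.2 and 15.2 with OF1, and 18.3, 17.7 and 18.4 with both. DMSO and OF1 overlapped, the XL413 libraries were above both, and the combination libraries were above all others. CHEK2 rose by 0.30 ± 0.07 on the log2 scale with XL413 (1.23-fold, edgeR adjusted p = 0.0239) and by 0.41 ± 0.07 with both compounds against DMSO (1.33-fold, adjusted p = 0.000816). Against OF1 alone the combination rose by 0.35 ± 0.07 (adjusted p = 0.00844), while against XL413 alone the log2 change was 0.11 ± 0.07 and did not pass (adjusted p = 0.433). The interaction was 0.05 ± 0.10, with a 95% interval of -0.16 to 0.25. CHEK2 has pseudogene copies, and 4 of its 12 counts were not whole, so part of its reads may have been shared with other entries.

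The CHEK1 and CHEK2 calls against DMSO in the combination were kept in all 11 other settings and with each of the 12 libraries left out, with adjusted p-values of up to 0.047 and 0.0313. They were kept with combination library 1 alone, at log2 changes of 0.21 (adjusted p = 0.0125) and 0.43 (adjusted p = 0.00945). Against OF1 alone both calls were lost with that library alone (adjusted p = 0.11 and 0.108) and with the muscle level as a covariate (adjusted p = 0.696 and 0.667), at log2 changes of 0.18 and 0.36 in the first fit and 0.17 and 0.34 in the second. Over all genes, the fit with the muscle covariate called 15 in this comparison, against 796 in the fit used. The CHEK1 call against OF1 was also lost without OF1 replicate 2 (adjusted p = 0.0504) and with only the libraries of the 2 groups (adjusted p = 0.0857). The XL413 call of CHEK2 was lost without DMSO replicate 2 or 3 or without any 1 of the XL413 libraries, at adjusted p-values of up to 0.139.

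**Figure D2:**
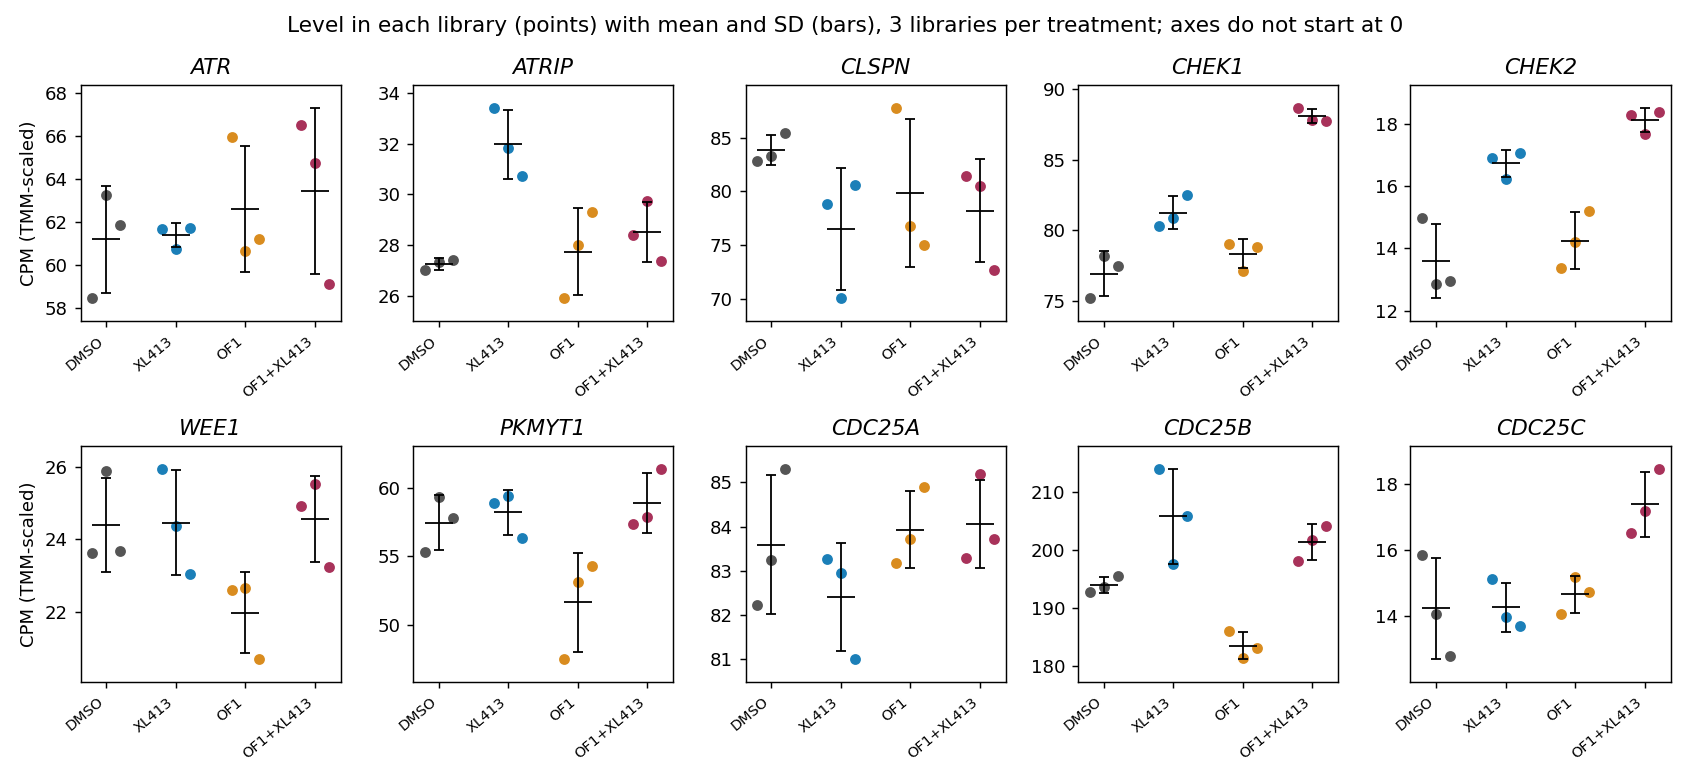
Level of each member in CPM (vertical axis, a separate scale per panel that does not start at 0) in the 12 libraries by treatment; points are libraries, black bars the mean and SD of 3. The combination libraries of CHEK1, CHEK2 and CDC25C lie above their DMSO libraries, and the OF1 libraries of WEE1, PKMYT1 and CDC25B lie below theirs.

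WEE1, which encodes a nuclear kinase that phosphorylates CDK1 and CDK2 on an inhibitory tyrosine, had 23.6, 25.9 and 23.7 CPM in DMSO, 25.9, 24.4 and 23.0 with XL413, 22.6, 22.6 and 20.7 with OF1, and 24.9, 25.5 and 23.2 with both. The OF1 libraries were the lowest 3 of the 12, and the other groups overlapped. The log2 change with OF1 was -0.15 ± 0.06 and did not pass (unadjusted p = 0.0255, adjusted p = 0.271 in edgeR). The combination was higher than OF1 alone by 0.16 ± 0.06, which did not pass (adjusted p = 0.134), and differed from DMSO by 0.01 ± 0.06, with a 95% interval of -0.12 to 0.14.

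PKMYT1, whose product MYT1 is a membrane-bound kinase that inhibits CDK1, had 55.3, 59.3 and 57.8 CPM in DMSO, 58.9, 59.4 and 56.4 with XL413, 47.5, 53.2 and 54.3 with OF1, and 57.4, 57.9 and 61.4 with both. The OF1 libraries were again the lowest 3 of the 12. The log2 change of OF1 against DMSO was -0.15 ± 0.05 and did not pass (unadjusted p = 0.0069, adjusted p = 0.148 in edgeR). The combination rose against OF1 by 0.19 ± 0.05 (1.14-fold, adjusted p = 0.037) and differed from DMSO by 0.04 ± 0.05 (adjusted p = 0.722). The call was lost with only the libraries of the 2 groups (adjusted p = 0.146), with combination library 1 alone (0.15, adjusted p = 0.367) and, at 0.13 to 0.21, without OF1 replicate 1 or 2, DMSO replicate 2 or 3, or combination replicate 2 or 3, and it did not pass with the muscle level as a covariate (0.28, adjusted p = 0.45).

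All 12 PKMYT1 counts were fractional, and the gene overlaps PAQR4, a membrane receptor gene. PAQR4 rose with XL413 (0.25 ± 0.06, adjusted p = 0.0378), with both compounds against DMSO (0.37 ± 0.06, adjusted p = 0.000958) and with both against OF1 (0.37 ± 0.06, adjusted p = 0.00291). The log2 change of PKMYT1 in the first 2 of these comparisons was 0.02 ± 0.05 and 0.04 ± 0.05. In the third, where both genes rose, it was 0.19 ± 0.05 (edgeR adjusted p = 0.037). How the counting split reads between the pair is not given in the sources used here.

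CDC25A, the phosphatase that CHK1 targets for degradation in S phase, varied least. It had 82.2, 83.2 and 85.3 CPM in DMSO, 83.3, 82.9 and 81.0 with XL413, 83.2, 83.7 and 84.9 with OF1, and 83.3, 85.2 and 83.7 with both. The groups overlapped with DMSO in all 3 comparisons. The 95% intervals of the log2 change against DMSO were -0.09 to 0.05 with XL413, -0.07 to 0.08 with OF1 and -0.06 to 0.08 with both.

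CDC25B, which acts on CDK1 at the onset of mitosis, had 193, 194 and 195 CPM in DMSO, 214, 198 and 206 with XL413, 186, 181 and 183 with OF1, and 198, 202 and 204 with both. The OF1 libraries were below all 9 others, and the XL413 and combination libraries were above those of DMSO. The log2 change was 0.09 ± 0.03 with XL413 (adjusted p = 0.16), -0.08 ± 0.03 with OF1 (unadjusted p = 0.0256, adjusted p = 0.271) and 0.05 ± 0.03 with both (adjusted p = 0.323), none of which passed in edgeR. Between the combination and OF1 alone it rose by 0.13 ± 0.03 (1.10-fold, adjusted p = 0.0262). That call was lost without any 1 of the 3 OF1 libraries, without combination replicate 2 or 3 (log2 changes of 0.12 to 0.14), with only the libraries of the 2 groups (adjusted p = 0.116), with combination library 1 alone (0.11, adjusted p = 0.308) and with the muscle level as a covariate (0.13, adjusted p = 0.771).

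CDC25C, a phosphatase of CDK1 that 14-3-3 proteins hold in the cytoplasm after phosphorylation by CHK1 or CHK2, had 15.9, 14.1 and 12.8 CPM in DMSO, 15.1, 14.0 and 13.7 with XL413, 14.1, 15.2 and 14.7 with OF1, and 16.5, 17.2 and 18.5 with both. The 3 combination libraries were above all 9 others, which overlapped with each other. CDC25C rose in the combination by 0.29 ± 0.08 on the log2 scale against DMSO (1.22-fold, edgeR adjusted p = 0.0205) and by 0.28 ± 0.08 against XL413 (1.22-fold, adjusted p = 0.0477). The log2 change against OF1, 0.25 ± 0.08, did not pass (adjusted p = 0.0658), nor did the interaction, 0.24 ± 0.11 (adjusted p = 0.459).

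The CDC25C calls were less stable than those of CHEK1 and CHEK2 against DMSO. The call against DMSO was lost with only the libraries of the 2 groups (0.29, adjusted p = 0.0598), with combination library 1 alone (0.22, adjusted p = 0.249), with the muscle level as a covariate (0.23, adjusted p = 0.297), without DMSO replicate 2 (0.28) or 3 (0.21) and without combination replicate 3 (0.24). The call against XL413 was lost without DMSO replicate 2, OF1 replicate 2 or 3, combination replicate 2 or 3 or any 1 of the XL413 libraries, at log2 changes of 0.23 to 0.33, and with combination library 1 alone (0.21, adjusted p = 0.31). It was also lost in edgeR with a replicate block (adjusted p = 0.0551) and with only the libraries of the 2 groups (adjusted p = 0.0627). The same held with the muscle level as a covariate (adjusted p = 0.94) and without robust estimation (adjusted p = 0.0526). CDC25C had 428 to 613 counts per library, the fewest of the 10, and 5 of its 12 counts were not whole. It overlaps FAM53C, for which the combination differed from DMSO by 0.04 ± 0.04 (adjusted p = 0.551).

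**Figure D3:**
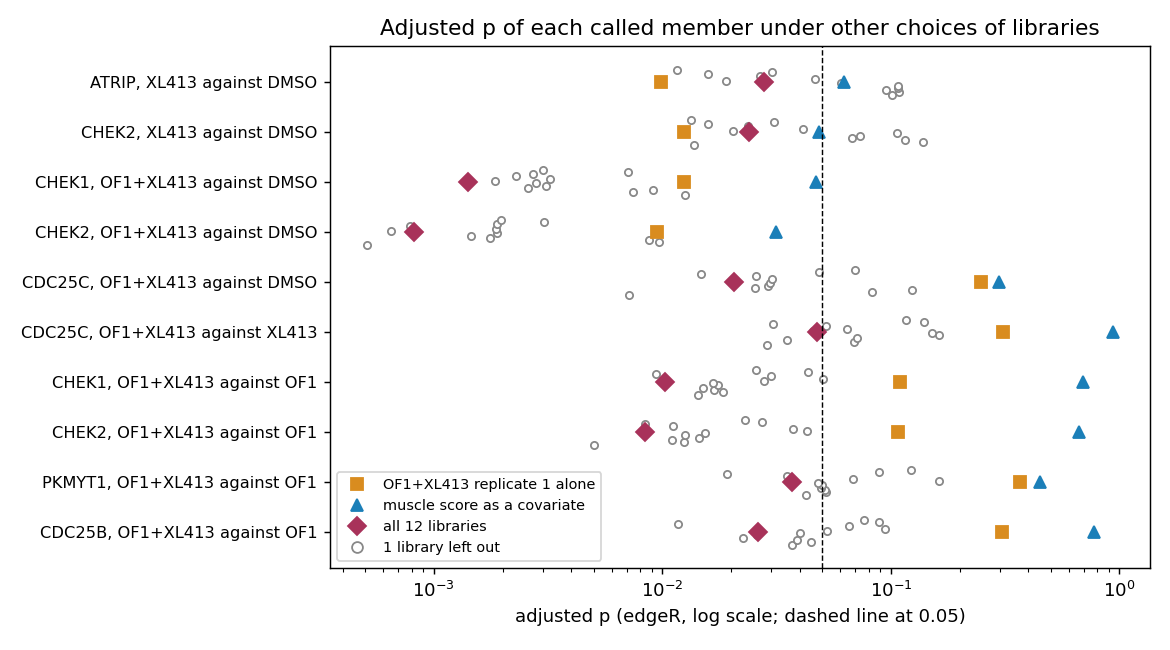
Adjusted p of each member that passed (rows) on a logarithmic axis with all 12 libraries (diamonds), with 1 library left out (open circles), with combination library 1 alone (squares) and with the muscle level as a covariate (triangles); the dashed line is at 0.05. All marks of CHEK1 and CHEK2 for the combination against DMSO lie left of the line, and marks of the other 8 calls cross it.

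Promoter sequence was read for the 3 members that rose together in the combination, with CDC25A as the member that varied least. RefSeq (GRCh38.p14) promoter windows, 250 bases before to 50 bases after a start, were given for 8 members in 17 windows. Each window was searched on both strands for the E2F site (TTTCCCGC, TTTCGCGC, TTTGCCGC or TTTGGCGC), the cell cycle homology region, CHR (TTTGAA or TTCGAA), the CCAAT box (CCAAT) and the ATF/CREB site (TGACGTCA). Of 35116 windows of the same length over all genes, 3.3% held an E2F site, 16.4% a CHR, 34.6% a CCAAT box and 1.8% an ATF/CREB site. The stretches upstream of the start are printed 5′ to 3′ on the gene's strand, with matches in capitals; ATTGG is CCAAT read on the other strand.
CHEK1, chr11:125626106-125626340, plus strand: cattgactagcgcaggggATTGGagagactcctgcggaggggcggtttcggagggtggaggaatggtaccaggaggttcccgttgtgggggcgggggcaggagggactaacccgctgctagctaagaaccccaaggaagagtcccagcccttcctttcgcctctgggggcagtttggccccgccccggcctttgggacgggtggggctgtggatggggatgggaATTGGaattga
CHEK2, chr22:28741845-28742070, minus strand: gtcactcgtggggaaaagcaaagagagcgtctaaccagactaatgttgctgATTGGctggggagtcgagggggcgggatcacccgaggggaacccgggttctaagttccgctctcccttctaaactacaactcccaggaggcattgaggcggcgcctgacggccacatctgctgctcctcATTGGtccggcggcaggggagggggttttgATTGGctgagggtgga
CDC25C, chr5:138331878-138332127, minus strand: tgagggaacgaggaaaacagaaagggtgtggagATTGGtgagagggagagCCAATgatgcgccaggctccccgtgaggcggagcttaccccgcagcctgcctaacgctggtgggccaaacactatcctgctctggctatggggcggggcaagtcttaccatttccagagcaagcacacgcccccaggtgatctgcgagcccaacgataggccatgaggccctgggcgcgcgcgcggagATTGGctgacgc
CDC25A, chr3:48188418-48188667, minus strand: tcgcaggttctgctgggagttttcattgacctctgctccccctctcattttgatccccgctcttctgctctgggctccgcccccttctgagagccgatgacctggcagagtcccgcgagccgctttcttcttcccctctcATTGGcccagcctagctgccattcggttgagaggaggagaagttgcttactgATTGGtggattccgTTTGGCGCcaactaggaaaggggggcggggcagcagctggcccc

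The windows printed are those with the most matches of their gene. The CHEK1 window at start 125626356 held 3 CCAAT boxes, at -232, -26 and -12 from the start, the last of them beyond the printed stretch. The windows at its other starts, 125626224 and 125626229, overlap this window and held only the same box as at -232. The CHEK2 window held 3, at -199, -70 and -40. The CDC25C window at start 138331877 held 3, at -217, -200 and -12, and a CHR at 44 to 49 after the start, outside the printed stretch. Of the other CDC25C windows, that at start 138331804 overlaps this window and held the same CCAAT box as at -12 and the same CHR. Those at 138338355 and 138338341 held no match. The CDC25A window, of the member that varied least, held CCAAT boxes at -110 and -58 and an E2F site, TTTGGCGC, at -44. CLSPN, which did not pass in any comparison, held 3 CCAAT boxes and an E2F site, GCGGGAAA on the other strand, across its start. CCAAT boxes were found in 12 of the 17 windows, several of which overlap, against 34.6% of windows over all genes. By member, 7 of the 8 had one, so this match did not separate the members that rose from those that did not.

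By position (GRCh38.p14), CLSPN lies at chr1:35720213-35769978, CHEK1 at chr11:125625136-125681124, WEE1 at chr11:9573670-9589985, PKMYT1 at chr16:2972808-2980446, CDC25B at chr20:3786951-3806115 and CHEK2 at chr22:28687742-28741834. ATR (chr3:142449235-142578733), ATRIP (chr3:48446737-48467645) and CDC25A (chr3:48157146-48188417) share a chromosome, and CDC25C lies at chr5:138285265-138338355. Of ATR, ATRIP and CDC25A, only ATRIP passed with XL413.

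The other genes of these pathways were read from lists chosen by role, and their counts are descriptions. Of all 15353 genes, 2788 had an unadjusted p under 0.05 in edgeR with XL413, 2171 with OF1 and 1537 for the interaction. Of 12 sensors and mediators of the ATR branch (the replication protein A subunits, the 9-1-1 clamp and its loader, TOPBP1, ETAA1, RHNO1, TIMELESS and TIPIN), none passed with XL413 alone in edgeR (3 at an unadjusted p under 0.05, 1 in DESeq2 and 0 in limma-voom after adjustment) or with OF1 alone (2 unadjusted, 0 in DESeq2 and 0 in limma-voom). With both compounds against DMSO, RPA3, a subunit of replication protein A, rose by 0.28 ± 0.07, TIMELESS, of the fork protection complex, rose by 0.13 ± 0.03, and its partner TIPIN fell by 0.16 ± 0.05 (edgeR adjusted p = 0.0499), with overlapping libraries; DESeq2 and limma-voom called 0 of the 12 lower. With combination library 1 alone, 0 of the 12 rose and 1 fell. The median log2 change of the 12 was 0.02, -0.01 and 0.07 in the 3 comparisons with DMSO.

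Of 10 genes of the ATM branch, none passed with XL413 (1 at an unadjusted p under 0.05) or with OF1 (3 unadjusted) in edgeR, and 0 did in DESeq2 and limma-voom. In the combination against DMSO, 3 rose: ATM, the kinase that activates CHK2, by 0.20 ± 0.06, BRCA1, a repair mediator, by 0.15 ± 0.04, and MRE11A, the nuclease of the break sensor, by 0.15 ± 0.04. With combination library 1 alone 2 rose. The medians of the list were -0.02, 0.08 and 0.06. For OF1 against DMSO, DESeq2 gave no adjusted p to 2 genes of this list, 2 of the sensors and mediators, 1 CDK or cyclin and 3 of the regulators below.

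Of 7 cyclin-dependent kinases and cyclins, 3 rose with XL413: CDK1, the mitotic kinase, by 0.44 ± 0.04, and its cyclins CCNB2 by 0.29 ± 0.04 and CCNB1 by 0.15 ± 0.03. CCNE2 was lower with XL413, with no overlap of libraries, by a log2 change of -0.18 ± 0.05, which did not pass (edgeR adjusted p = 0.0547). DESeq2 called 1 of the 7 lower with XL413 and limma-voom 0. With OF1 none passed in edgeR, 0 had an unadjusted p under 0.05, and 0 passed in DESeq2 and limma-voom. With both compounds 4 rose, among them CDK1 by 0.54 ± 0.04 and CCNB2 by 0.38 ± 0.04, and CCNE2, a cyclin of the entry into S phase, fell by 0.21 ± 0.05. In the fit of combination library 1 alone 3 rose and none fell. The medians of the list were 0.09, -0.0034 and 0.16. The log2 changes of CDK1 exceeded those of every checkpoint member against DMSO with XL413 and with both.

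Of 22 regulators of WEE1 and CDC25 proteins, 3 rose and 1 fell with XL413: AURKA, a mitotic kinase, rose by 0.22 ± 0.03, MASTL, a kinase that restrains a phosphatase of mitotic substrates, by 0.22 ± 0.05 and SKP1, a ubiquitin ligase subunit, by 0.16 ± 0.04, and the 14-3-3 gene YWHAG fell by 0.14 ± 0.03. With OF1, 4 fell: SFN (14-3-3 sigma) at -0.46 ± 0.08, the mitotic kinase PLK1 at -0.18 ± 0.03, AURKA at -0.14 ± 0.03 and YWHAB, another 14-3-3 gene, at -0.12 ± 0.03. With both compounds against DMSO 4 rose and 3 fell, with SFN at -0.50 ± 0.08, SKP1 at 0.20 ± 0.04, YWHAB at -0.19 ± 0.03 and AURKA at 0.18 ± 0.03. The fit of combination library 1 alone called 3 higher and 3 lower. The medians were -0.00026, 0.0021 and -0.00029.

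Of 20 S-phase genes, 3 rose and 1 fell with XL413, 2 fell with OF1 (TK1 at -0.19 ± 0.04 and MCM2 at -0.14 ± 0.03) and 3 rose with both against DMSO. DESeq2 called 5 S-phase genes higher and 1 lower with XL413, and 3 higher and 1 lower with both. Of 20 G2/M genes, 6 rose with XL413, 1 fell with OF1 (CDC20 at -0.17 ± 0.04) and 9 rose with both, among them UBE2C and HMMR, each by 0.61 ± 0.05. DESeq2 called 7 G2/M genes higher and 2 lower with XL413. With combination library 1 alone, 2 S-phase genes and 6 G2/M genes rose against DMSO. The medians were 0.09, -0.07 and 0.04 for S-phase genes and 0.06, 0.0021 and 0.08 for G2/M genes.

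**Figure D4:**
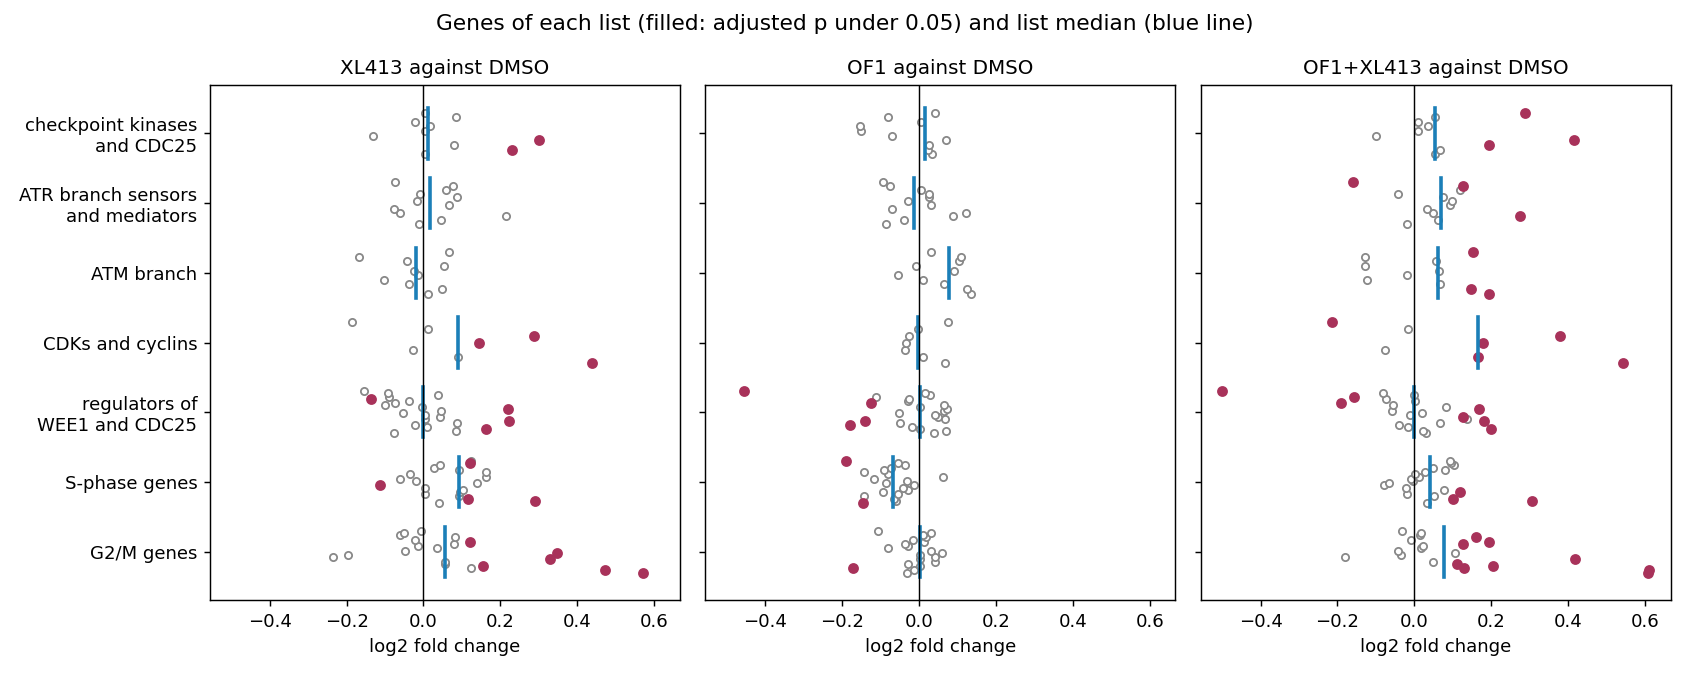
Log2 fold change of every gene of the member list and 6 other lists (rows) in the 3 comparisons with DMSO; filled red points passed at an adjusted p under 0.05 and blue lines are list medians. With XL413 and with both compounds the largest positive changes lie among CDKs, cyclins and G2/M genes, and filled points of the OF1 panel lie left of 0.

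Against OF1 alone, 4 CDKs and cyclins, 9 S-phase genes and 9 G2/M genes rose in the combination, with CDK1 at 0.47 ± 0.04 and CCNB2 at 0.40 ± 0.04, and CCNE2 fell by 0.29 ± 0.05. In the checkpoint branches TIMELESS rose by 0.20 ± 0.03 and RNF168, a ubiquitin ligase of the break response, fell by 0.24 ± 0.07 (limma-voom also called 1 gene of its list lower and DESeq2 0), and of the regulators 3 rose, AURKA by 0.32 ± 0.03, SKP1 by 0.20 ± 0.04 and PLK1 by 0.14 ± 0.03. With combination library 1 alone these counts were 2 CDKs and cyclins, 2 S-phase genes, 6 G2/M genes, 0 of the checkpoint branches and 1 regulator, all rising. Against XL413 alone, 3 genes of the 6 lists passed, all lower: SFN at -0.34 ± 0.08, YWHAB at -0.12 ± 0.03 and the thymidylate synthase gene TYMS at -0.20 ± 0.04. With combination library 1 alone 1 gene of the ATM branch and 1 S-phase gene fell and 1 G2/M gene rose. The interaction passed for no gene of the 6 lists in edgeR, DESeq2 or limma-voom, where 1, 1, 0, 4, 6 and 3 genes had an unadjusted p under 0.05 in the order of the lists above.

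Across the 12 libraries, the genes whose log2 CPM was most like that of CHEK2, by Pearson correlation among 10629 genes, were CAT (catalase, r = 0.963, Spearman rho = 0.923), RAB13 (0.943 and 0.937), CCNB2 (0.936 and 0.937), CTNNA1 (alpha-catenin, 0.935 and 0.923) and RAB11A (0.934 and 0.874). The 10629 candidates left out genes of low mean level and symbols that start with LOC, LINC or MIR or hold a hyphen. Symbols that end in P, with or without digits after it, were also left out. That last rule removed coding genes too, among them NUSAP1, CKAP2 and DLGAP5 of the G2/M list. Without DMSO replicates 2 and 3, the farthest from the CHEK2 median, r ran from 0.911 to 0.962. The points share their libraries and scaling, and the 5 were picked as the highest of the candidates, so these are descriptions with no test.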

How the data were processed

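The 12 libraries were poly(A)-selected, strand-specific RNA-seq, per the labels' protocols. The authors deposited RSEM expected counts per gene (Bowtie2 2.1.0, RSEM 1.2.15, hg38, per the submitters' processing notes). The annotation is not given in the sources used here. Expected counts were rounded (10.6% of values were not whole), and 5357 entries were 0 in all libraries. Groups came from the sample titles. edgeR 4.0.16 (R 4.3.3) was run on all 12 libraries with filterByExpr, TMM scaling and a robust quasi-likelihood fit of group means (8 residual degrees of freedom, common biological coefficient of variation 0.0487). The standard error was the log2 change divided by the root of F. DESeq2 1.42.0, limma-voom 3.58.1, other scalings and filters, a replicate block, each library left out, combination library 1 alone and a muscle covariate were alternatives. The fit without robust estimation, and the lists with combination library 1 alone, were added after seeing the data. The script was tested on simulated data.

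The members and lists were chosen with earlier results of these data known. All 10 members are named, with up to 4 called genes of largest change per list and comparison. The 5 genes most like the member of smallest adjusted p, among the candidates described above, are also named. MRE11 and H2AX were matched by older symbols. Promoters and positions are from RefSeq GRCh38.p14, and transcript lengths from GENCODE. Fibroblast and immune marker lists were also read, and the 4 immune markers summed to at most 0.869 CPM.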

Additional observations from a re-analysis of the deposited data

How the results depend on the processing

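With XL413 against DMSO, 2 members passed; 1 did with the muscle level as a covariate and 0 to 2 with 1 library left out. With OF1 against DMSO 0 members passed in every setting run (of 8 with an adjusted p in DESeq2), and the interaction likewise gave 0. In the combination against DMSO 3 passed and 2 to 3 in all settings run. Against XL413 alone 1 passed, and 0 did with a replicate block, with only the libraries compared, with combination library 1 alone, with the muscle level as a covariate and without robust estimation; it was 0 to 1 with 1 library left out. Against OF1 alone 4 passed, 1 with only the libraries compared, 0 with combination library 1 alone, 0 with the muscle level as a covariate, and 1 to 5 with 1 library left out (1 without OF1 replicate 2, 2 without OF1 replicate 1 or combination replicate 2 or 3). The fit of combination library 1 alone assumes that it varies like the other groups. With the muscle level as a covariate, calls over all genes were fewer too. They were 338 for the combination against DMSO (1633 in the fit used), 38 against XL413 (468) and 15 against OF1 (796). The cause of these changes in the counts was not tested.

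Of 648 single member values in other settings, 628 kept their side of the threshold and 20 lost the call; of 720 with 1 library left out, 684 kept it, 34 lost and 2 gained it. No called value changed sign. Same-numbered libraries were not treated as paired in the fit used, and the titles give only replicate numbers. Of 18 same-numbered pairs, 1 had a correlation over 0.1 (range -0.16 to 0.20), and 3 of 12 libraries were closest to their own number. The replicate block changed no other count of members, giving 2, 0, 3 and 4 against DMSO and OF1. Counts over all genes ran from 111 (without XL413 replicate 2) to 1577 (only the libraries compared) for XL413 (484 in the fit used), from 48 to 537 for OF1 (220), from 338 to 2116 for the combination against DMSO (1633), from 38 to 844 against XL413 (468), from 15 to 2165 against OF1 (796), and from 0 to 366 for the interaction (5). With 3 libraries per group, even log2 changes of several times their standard error did not always pass in edgeR. Examples are CHEK1 in the combination against XL413 (0.12 ± 0.03, adjusted p = 0.0758) and CDC25C in the combination against OF1 (0.25 ± 0.08, adjusted p = 0.0658). A change that did not pass is therefore not shown to be absent.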
